A study of Mus musculus with 24 samples.

Results

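The comparison set ileal tissue treated with a single bile acid against tissue treated with an extract from wild-type mice. It holds 7 of the 24 libraries of the series: 4 treated with tCDCA (taurochenodeoxycholic acid, a taurine-conjugated primary bile acid) and 3 treated with the extract labelled WT CME(+). The libraries were chosen by these labels. Tissue in every group was fragments of ileum from male C57BL/6J mice, starved for 4 h and kept for 8 h with the additive. No age is stated for them. The tCDCA label gives 200 µM for replicates 2 to 4 and no concentration for replicate 1. The labels do not spell out CME; CME(+) was taken as the form depleted of bile acids, since the treatment text speaks of a depletion and gives a bile acid concentration for tCDCA and CME(-) but not for CME(+). The treated tissue was wild-type in both groups, and WT names the donor of the extract, for which the treatment labels of replicates 3 and 4 give different donor numbers and that of replicate 1 none. Replicate 2 of WT CME(+) is labelled as removed for poor mapping, so replicates 1, 3 and 4 were used. Solvent libraries with 0.6% DMSO (replicates 2 to 4) are given beside the results as the level without bile acid or extract. WT CME(-) and KO CME(+), with 4 libraries each, are set beside WT CME(+) in a later paragraph. KO marks extract donors lacking the carrier gene Asbt. The WT CME(-) label gives 200 µM for replicates 2 to 4 and no concentration for replicate 1. Nothing in the labels says that fragments of different replicates came from different animals, so each p-value reflects only how far these libraries scatter, which can be technical.

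Conjugated bile acids enter ileal enterocytes through the apical carrier Slc10a2 (also called ASBT), are carried in the cell by Fabp6 and leave through the basolateral pair Slc51a and Slc51b. Inside the cell they bind the nuclear receptor FXR, which induces Fgf15, a hormone that represses bile acid synthesis in the liver. Enterocytes carry microvilli with digestive enzymes and carriers for sugars, amino acids and ions, and hold this programme under transcription factors such as HNF4 and CDX2. Damaged or stimulated epithelium makes ligands of the EGF receptor, among them Areg, Ereg and Hbegf.

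RNA was measured by QuantSeq, a 3' mRNA-seq method that gives about 1 read per transcript, and the deposited values are whole-number counts per gene. Total counts lay between 2936750 and 5602260 in the 7 libraries. Columns begin with 1 of 2 numbers, which were read as marks of a sequencing run: replicate 1 of each group belongs to the first run and the others to the second. The DMSO libraries used, replicates 2 to 4, are thus all of the second run. Mitochondrial rRNA took 5.29% to 33.1% of the counts with tCDCA and 7.15% to 22.0% with WT CME(+). The 5.29% was tCDCA replicate 3 of the second run, in which tCDCA replicates 2 and 4 stood at 33.1% and 28.1%. In the first run replicate 1 stood at 7.69% with tCDCA and 7.15% with WT CME(+). With these rRNAs and 1 further abundant identifier left out, 195 genes were called in place of the 203 given below. Log counts of replicates of a group correlated with r between 0.871 and 0.939, and no pair agreed within sampling noise. Markers of enterocytes, goblet cells and Paneth cells were present in all 7 libraries, as for ileum, while 7 of 10 markers of pancreatic acinar cells were at 0 in all of them.

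tCDCA and WT CME(+) tissue differed at 203 of 13125 genes tested (1.55%) by edgeR's quasi-likelihood test with run as a covariate, at an adjusted p under 0.05. Of these, 64 (0.488%) were higher with tCDCA and 139 (1.06%) were lower. A change of at least 2-fold was found for 91 of them, 32 higher and 59 lower. The median log2 fold change of all genes was 0.01. An unadjusted p under 0.05 was found for 1601 genes, where chance gives 656. In 112 called genes the 4 tCDCA libraries did not overlap with the 3 WT CME(+) libraries, 42 higher and 70 lower. Among all genes tested such a separation was found for 6.79% (3.34% higher and 3.44% lower). Within the second run, 59 of the 64 higher and 132 of the 139 lower genes did not overlap and also differed the same way in the first, as did 8.3% and 8.82% of all genes. Without the run term 0 genes were called, with 857 at an unadjusted p under 0.05, and with the 7 libraries fitted alone 29 were called. Leaving out WT CME(+) replicate 4 left 54 genes, leaving out replicate 3 left 80, and leaving out tCDCA replicate 4 left 112. More genes were called by DESeq2 (363), with all 24 libraries (402), with WT CME(+) replicate 2 added (426) and without tCDCA replicate 1 (295). Without scaling factors 18 genes were higher and 76 lower.

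**Figure D1:**
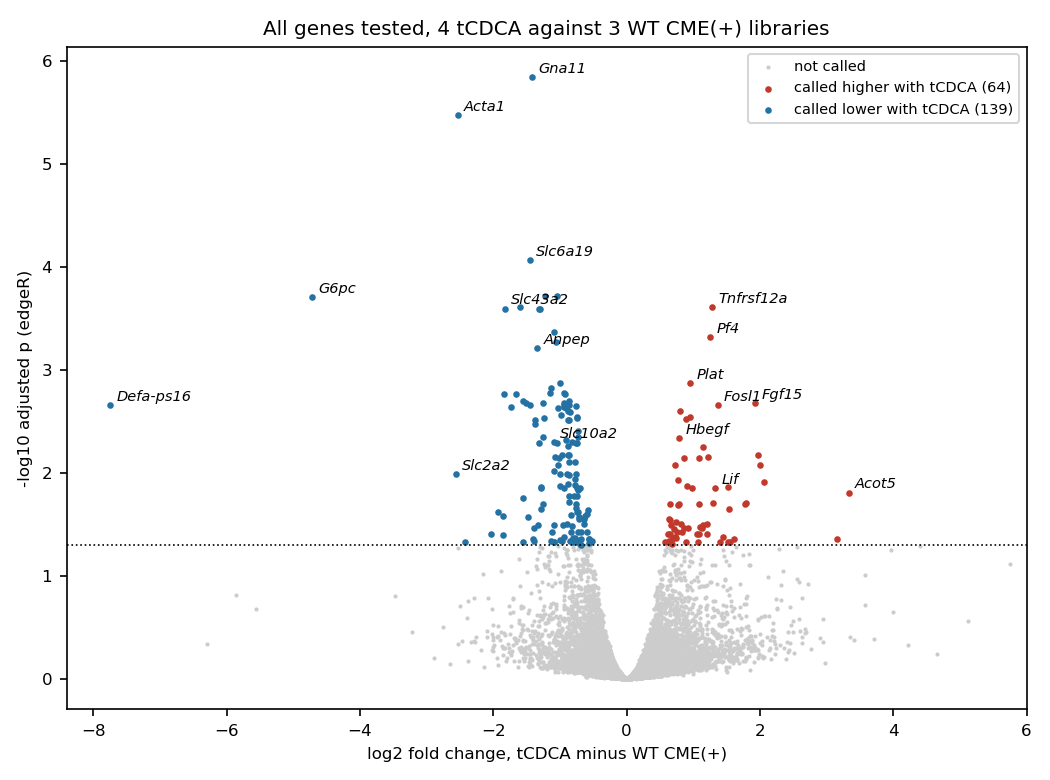
Each point is 1 of the 13125 genes tested. The x axis is the log2 fold change (tCDCA minus WT CME(+)) and the y axis is −log10 of edgeR's adjusted p. The dotted line marks an adjusted p of 0.05, above which 64 genes lie to the right and 139 to the left.

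Fgf15 rose in every tCDCA library. It stood at 265, 174, 272 and 249 CPM (CPM, the count scaled to the library's size after TMM normalization) in tCDCA replicates 1 to 4, against 75.9, 40.3 and 77.8 CPM in WT CME(+) replicates 1, 3 and 4. The groups did not overlap, and the lowest tCDCA library was more than 2-fold above the highest extract library. The log2 fold change was 1.93 ± 0.30 (SE, n = 4 and 3, edgeR adjusted p = 0.00209). Both groups were above the solvent, where Fgf15 was at 7.95, 5.94 and 7.20 CPM in DMSO replicates 2 to 4. Against DMSO the log2 fold change was 4.98 ± 0.38 with tCDCA (edgeR adjusted p = 2.89e-07) and 3.05 ± 0.38 with WT CME(+) (edgeR adjusted p = 0.00138), so the extract group was not at the solvent level for this gene.

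Slc10a2, the apical bile acid carrier, fell. Its values were 95, 168, 104 and 162 CPM with tCDCA and 119, 397 and 363 CPM with WT CME(+), beside 658, 405 and 540.4 CPM with DMSO. WT CME(+) replicate 1, from the first run, lay within the tCDCA range, while the WT CME(+) replicates of the second run were above every tCDCA library. The log2 fold change was -1.09 ± 0.22 (edgeR adjusted p = 0.005), and the call was lost without WT CME(+) replicate 3 or without replicate 4. Fabp6, the ileal bile acid binding protein, did not pass the test, with a log2 fold change of 0.44 ± 0.22 (edgeR adjusted p = 0.423). Its range was 2624 to 7548 CPM with tCDCA and 2893 to 5362 CPM with the extract, and the groups overlapped. The exporter subunits Slc51a and Slc51b gave 0.16 ± 0.21 and 0.18 ± 0.19 on the log2 scale (edgeR adjusted p = 0.847 and 0.803). The 95% intervals of those differences were -0.26 to 0.58 and -0.21 to 0.56. Nr0b2, which encodes the FXR-induced repressor SHP, was too low to be tested. Of the 12 tested genes of the FXR network, 1 was called higher (Fgf15) and 1 lower (Slc10a2), with a median log2 fold change of 0.17. By DESeq2 2 were called higher. Among 13 carriers of bile acids and organic anions 2 were called lower. Besides Slc10a2 this was Abcg2, an apical efflux pump, at -0.57 ± 0.15 (edgeR adjusted p = 0.0442), named after its values were seen. The count was 1 without each of tCDCA replicates 1, 3 and 4, and 0 without WT CME(+) replicate 3 or 4.

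**Figure D2:**
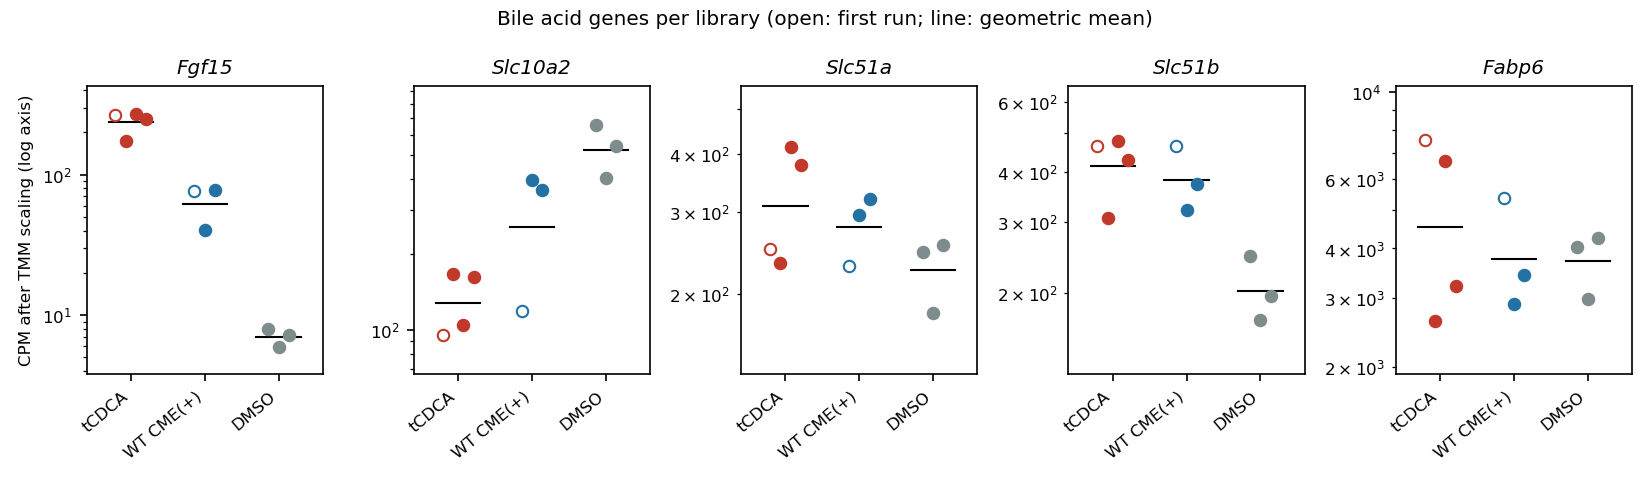
CPM after scaling on log axes for 5 bile acid genes, each point a library (open for the first run), lines at the geometric mean of tCDCA (n = 4), WT CME(+) (n = 3) and DMSO (n = 3). The tCDCA and WT CME(+) points are separate for Fgf15 and overlap for Slc10a2, Slc51a, Slc51b and Fabp6.

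Enzymes and proteins of the brush border, the microvillus surface where peptides and sugars are digested, made up the most frequent group among the lower genes. Of 19 tested members 11 fell and none rose, with a median log2 fold change of -0.90, where 1.06% of all genes fell and the median was 0.01. Anpep, aminopeptidase N, stood at 346, 153, 283 and 328 CPM with tCDCA and 528, 804 and 768 CPM with WT CME(+), which did not overlap. It fell by 1.34 ± 0.22 on the log2 scale (edgeR adjusted p = 0.000614). The disaccharidase Mgam changed by -1.06 ± 0.18 and sucrase-isomaltase, Sis, by -1.26 ± 0.27. Sis was at 322, 395, 216 and 320.5 CPM with tCDCA and at 339, 978 and 1105 CPM with the extract, and the difference was large in the second run and close to 0 between the replicates of the first (-0.08). Further peptidases that fell were Dpp4 (-0.90 ± 0.17), Enpep (-0.73 ± 0.15), Mep1b (-0.91 ± 0.19), Xpnpep2 (-0.75 ± 0.18) and Naaladl1 (-1.0 ± 0.22). Vil1, the actin-bundling protein of the microvillus core, changed by -0.77 ± 0.17, Cdhr5, a cadherin of the links between microvilli, by -0.73 ± 0.20, and Alpi, intestinal alkaline phosphatase, by -1.28 ± 0.28. Vil1 was lower in every tCDCA library than in every extract library. Sis, Alpi, Xpnpep2, Naaladl1, Cdhr5, Vil1 and Mep1b are named here after their values were seen. The count fell to 3 without WT CME(+) replicate 4, and to 6 without WT CME(+) replicate 3 or without tCDCA replicate 4. Without scaling factors it was 5, and with the 7 libraries fitted alone it was 2.

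**Figure D3:**
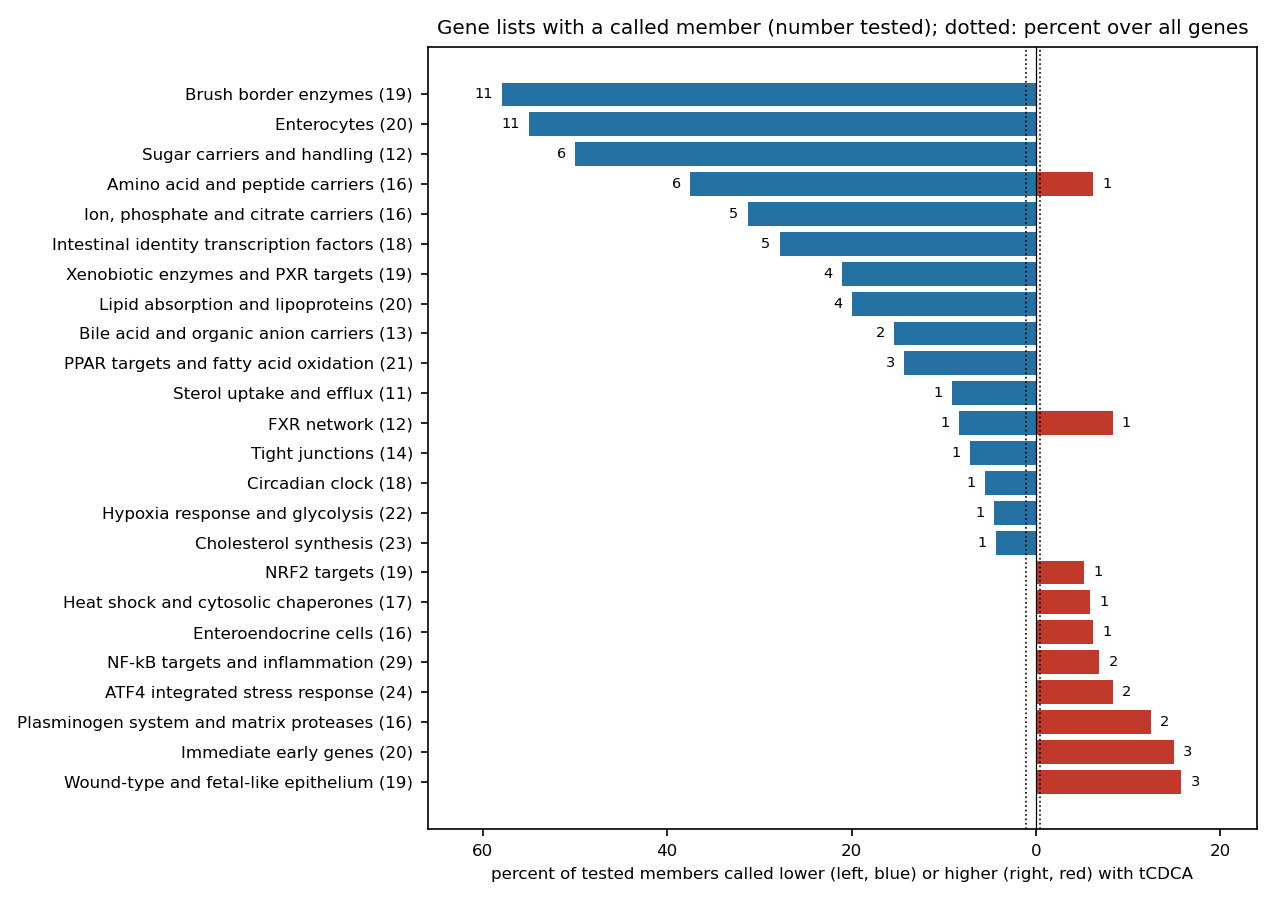
Percent of tested members called lower (blue, to the left of 0) or higher (red, to the right) with tCDCA, for each gene list with a called member. Numbers at the bars count the called members and brackets give the members tested. Dotted lines mark 1.06% and 0.488%, the percent called lower and higher among all genes. Enterocyte markers share members with the lists of enzymes and carriers.

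Sugar uptake and fructose handling followed in the same direction, with 6 of 12 tested members lower, 0 higher and a median of -1.06. Slc2a2, the basolateral glucose and fructose carrier GLUT2, had the largest decrease among called genes with a mean log2 CPM of at least 3. It measured 1.49, 18.0, 2.61 and 4.71 CPM with tCDCA and 6.15, 44.7 and 57.7 CPM with WT CME(+), a log2 fold change of -2.56 ± 0.49 (edgeR adjusted p = 0.0103). The ranges overlapped only through WT CME(+) replicate 1, which was still above tCDCA replicate 1 of its own run. Slc5a1, the sodium-glucose carrier SGLT1, stood at 328, 402, 289 and 296 CPM against 372, 784 and 825 CPM and changed by -0.98 ± 0.19 (edgeR adjusted p = 0.00272). The extract replicates of the second run lay apart from all tCDCA libraries, and replicate 1 lay among them. Of the enzymes that take up fructose carbon, ketohexokinase Khk changed by -1.23 ± 0.24 and the triokinase Tkfc by -1.14 ± 0.20. G6pc, glucose-6-phosphatase, had 0, 3, 2 and 0 counts in tCDCA replicates 1 to 4 and 0, 37 and 70 counts in WT CME(+) replicates 1, 3 and 4 (edgeR adjusted p = 0.000196). It had no count in either library of the first run, so its difference came from the second run. With the 7 libraries fitted alone 2 of the 6 were called.

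Carriers of amino acids and peptides fell in 6 of 16 tested members and rose in 1 (median -0.68). Slc6a19, the apical carrier of neutral amino acids B0AT1, had the smallest p of the list. Its values were 9.22, 72.3, 51.2 and 40.5 CPM with tCDCA and 22.1, 153 and 164 CPM with the extract. Within each run every tCDCA library was below every extract library, and across runs the ranges overlapped. The log2 fold change was -1.45 ± 0.20 (edgeR adjusted p = 8.67e-05). Slc15a1, the peptide carrier PEPT1, fell from 49.6, 68.3 and 67.7 CPM with the extract to 22.6, 36.3, 16.7 and 20.7 CPM with tCDCA. The groups did not overlap (-1.37 ± 0.26, edgeR adjusted p = 0.00334). Slc43a2, a carrier of large neutral amino acids, changed by -1.83 ± 0.26, and Slc3a1 and Slc7a9, the heavy and light chains of the cystine and dibasic amino acid carrier, by -0.94 ± 0.18 and -0.76 ± 0.16. Slc7a15 was at 2.23, 6.79, 3.66 and 0.628 CPM against 8.06, 10.5 and 16.9 CPM and changed by -1.93 ± 0.47. The 1 higher member was Slc7a11, the cystine-glutamate exchanger, described with the stress genes. Slc7a9 is named after its values were seen.

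Ion carriers showed 5 lower members of 16 tested and 0 higher (median -0.49). Atp1b1, the beta subunit of the sodium pump, which drives the uptake of sugars and amino acids, was among them and changed by -0.86 ± 0.16 (edgeR adjusted p = 0.00218). It measured 524, 796, 606 and 739.9 CPM with tCDCA and 692, 1443 and 1500.0 CPM with WT CME(+). WT CME(+) replicate 1 lay inside the tCDCA range, and replicates 3 and 4 were above it. The basolateral bicarbonate carrier Slc4a4 changed by -1.09 ± 0.18 (edgeR adjusted p = 0.000427), with 50.2, 70.6, 43.3 and 74.1 CPM against 76.1, 172 and 135 CPM, which did not overlap. The citrate carrier Slc13a2 changed by -0.81 ± 0.22, but its replicates of the first run differed by 0.11 in the other direction. Slc9a3, the sodium-proton exchanger NHE3, was low, at 0 to 2.38 CPM with tCDCA and 6.79 to 7.98 CPM with the extract (named after its values were seen). The count was 2 without WT CME(+) replicate 4, 3 without each of WT CME(+) replicate 3 and tCDCA replicates 3 and 4, 2 without scaling factors, and 0 with the 7 libraries alone.

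Genes of fat absorption fell in 4 of 20 tested members, with none higher and a median of -0.82. Acsl5, which activates fatty acids to acyl-CoA, stood at 239.6, 222, 179.6 and 177 CPM with tCDCA and 320.0, 388 and 413 CPM with the extract. All 4 tCDCA libraries were below all 3 extract libraries (-0.87 ± 0.16, edgeR adjusted p = 0.002). Tm6sf2, which takes part in the lipidation of lipoproteins, changed by -1.0 ± 0.18, Dgat2, which makes triglyceride, by -0.77 ± 0.18, and the lipid droplet protein Plin3 by -0.74 ± 0.16. Dgat2 did not differ in that direction between the replicates of the first run (0.03). Only 1 of the 4 was called without WT CME(+) replicate 4, and 0 with the 7 libraries alone. Npc1l1, the apical cholesterol carrier, was the 1 lower gene of 11 for sterol uptake and efflux (-1.26 ± 0.25), and Dhcr7 the 1 of 23 for cholesterol synthesis (-1.0 ± 0.23), both named after their values were seen. Neither was called without WT CME(+) replicate 4, nor was Dhcr7 without WT CME(+) replicate 3 or tCDCA replicate 2. Against DMSO, Dhcr7 differed by -0.12 ± 0.24 with tCDCA and by 0.88 ± 0.25 with WT CME(+), neither of which passed the test. The median of the cholesterol synthesis list against DMSO was 0.02 with tCDCA and 0.37 with WT CME(+). Among 21 PPAR targets and genes of fatty acid oxidation 3 fell, among them the mitochondrial carrier Ucp2 (-0.91 ± 0.18) and the pantetheinase Vnn1 (-1.48 ± 0.36). The median of that list was -0.19, and 0 of the 3 were called with the 7 libraries alone.

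Enzymes of xenobiotic metabolism fell in 4 of 19 tested members (median -0.74, none higher). They were the carboxylesterases Ces2a (-1.09 ± 0.29) and Ces2e (-0.68 ± 0.18) and the sulfotransferases Sult1b1 (-0.74 ± 0.18) and Sult1d1 (-0.71 ± 0.18). Both families hold near copies, between which 3' reads may be split, so the values of single members are uncertain. None of the 4 stayed below the threshold without WT CME(+) replicate 3, without WT CME(+) replicate 4 or without tCDCA replicate 4, and 1 did without tCDCA replicate 3 or without scaling factors.

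Transcription factors of intestinal identity fell in 5 of 18 tested members, with none higher and a median of -0.38. Cdx2, the homeobox factor that specifies intestine, stood at 2.97, 19.3, 33.2 and 20.7 CPM with tCDCA and 9.97, 59.3 and 63.0 CPM with WT CME(+). The first run lay lower in both groups, and within each run tCDCA was below the extract. Its log2 fold change was -1.45 ± 0.27 (edgeR adjusted p = 0.0022). The HNF4 paralogs, nuclear receptors that hold up enterocyte genes, were both lower, Hnf4g by -1.09 ± 0.24 and Hnf4a by -0.64 ± 0.16. Hnf4a measured 259.5, 246, 296 and 237 CPM against 338, 407 and 467 CPM, without overlap, beside 351, 300.4 and 294 CPM with DMSO. The solvent libraries of Hnf4a overlapped with both groups. Maf changed by -0.74 ± 0.17 and Klf4, named after its values were seen, by -0.56 ± 0.15. The count was 1 without WT CME(+) replicate 4, 2 without WT CME(+) replicate 3 or tCDCA replicate 4, 3 without tCDCA replicate 2 or without scaling factors, and 1 with the 7 libraries alone.

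Promoters of the lower genes were searched for the letters CAAAGTCCA, a sequence bound by HNF4, on both strands from 250 bases before to 50 after the start in RefSeq (GRCm38.p6). They were present in 3 of the 109 lower genes with a promoter in the table (2.75%) and in 0.619% of all tested genes with one. A pair of these promoters, of genes described above, is shown for the 150 bases before the start site, 5′ to 3′ on the gene's strand, with the match in capitals (chr1:87101607-87101756, minus strand for Alpi; chr17:85028197-85028346, plus strand for Slc3a1).
Alpi: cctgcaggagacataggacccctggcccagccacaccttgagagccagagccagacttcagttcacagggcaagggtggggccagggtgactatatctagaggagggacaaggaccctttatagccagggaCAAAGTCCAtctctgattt
Slc3a1: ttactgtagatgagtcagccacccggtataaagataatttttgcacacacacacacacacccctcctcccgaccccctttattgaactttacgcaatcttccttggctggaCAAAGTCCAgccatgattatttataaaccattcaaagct
In Alpi the match begins 19 bases before the start site, and in Slc3a1 39 bases before it. The match is a description of letters and not a measured binding site. None of the 9538 tested genes with a promoter in the table held the full HNF1 palindrome or the inverted repeat of FXR in this window. CCATAAA (CDX) was found in 2.75% of the lower genes and 2.15% of all tested genes.

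Several of the largest decreases belonged to none of these lists. Acta1, skeletal muscle alpha-actin, stood at 2.53, 2.71, 9.66 and 8.48 CPM with tCDCA and 12.9, 48.3 and 39.0 CPM with WT CME(+), and Ldb3, a protein of the muscle Z-disc, at 4.01, 12.2, 5.48 and 18.2 CPM against 9.33, 35.6 and 40.2 CPM. Acta1 did not overlap between the groups, and Ldb3 overlapped through WT CME(+) replicate 1 of the first run. Their log2 fold changes were -2.53 ± 0.31 and -1.55 ± 0.29 (edgeR adjusted p = 3.35e-06 and 0.002). By contrast the 12 markers of smooth muscle had no called member, a median of 0.41, and a summed level of 1564 to 2983 CPM with tCDCA and 1347 to 1662 CPM with the extract. Gda, guanine deaminase, measured 122, 77.0, 46.7 and 41.5 CPM against 202, 152 and 239 CPM (-1.50 ± 0.25). Acy3, an aminoacylase, changed by -1.83 ± 0.31, Apol7a by -1.74 ± 0.33, Prr15 by -1.60 ± 0.25 and Iyd, an iodotyrosine deiodinase, by -1.55 ± 0.42. The urate carrier Slc2a9 changed by -1.66 ± 0.31 and the serotonin carrier Slc6a4 by -1.56 ± 0.37. All of these were lower with tCDCA in each of the 4 libraries than the extract mean of the same run. Iyd kept its call under 7 of the 18 alternatives, Slc6a4 under 12, and the other 7 genes under 16 or 17.

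**Figure D4:**
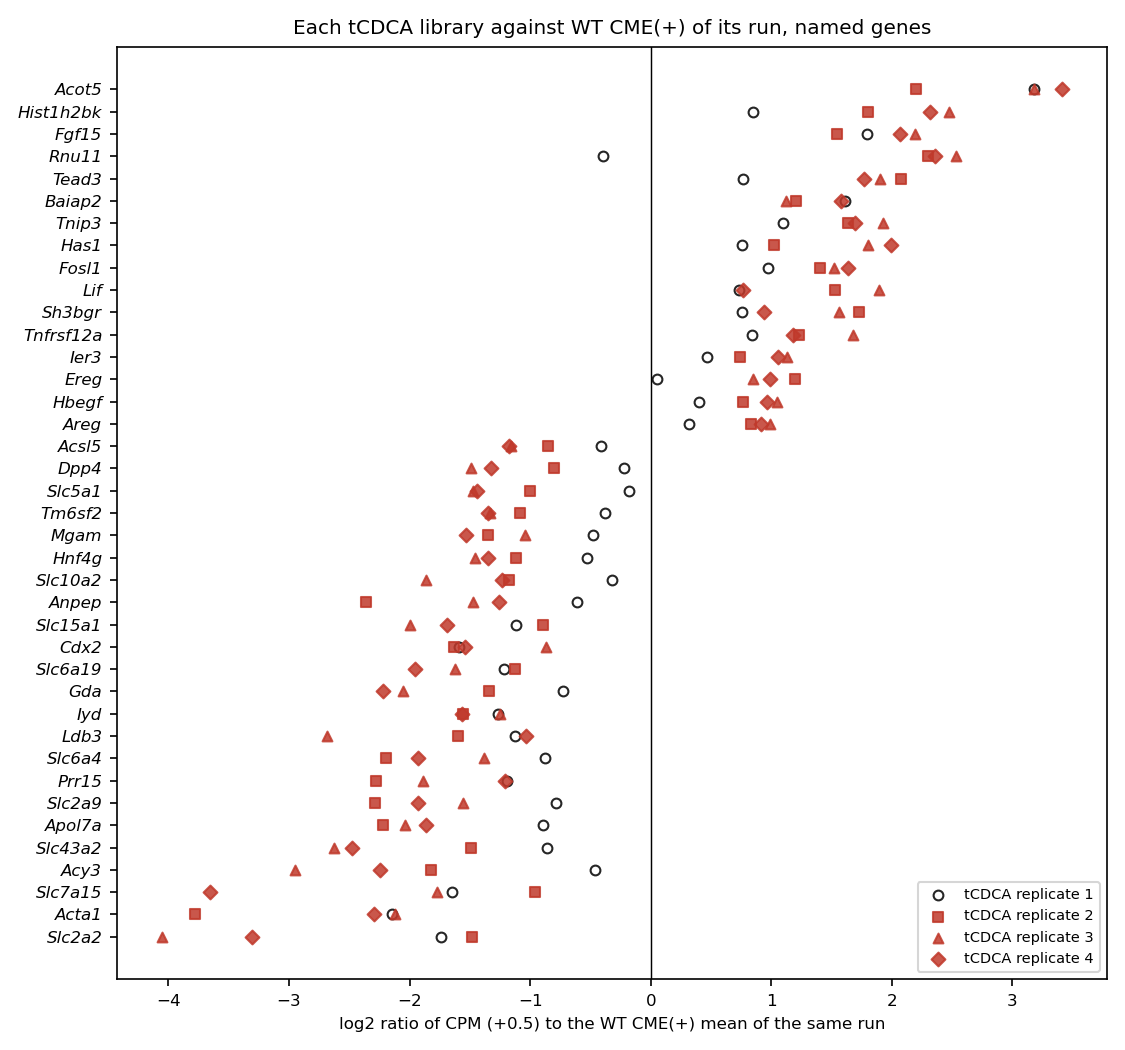
The log2 ratio of each tCDCA library's CPM (plus 0.5) to the WT CME(+) mean of the same run, for a part of the named genes that passed the test. Replicate 1 (open circles) has 1 extract library as its reference and replicates 2 to 4 (filled) share 2. Apart from Rnu11 in replicate 1, each plotted gene lies on 1 side of 0 in all 4 libraries. Among named genes not plotted, Slc13a2 and Dgat2 lie above 0 in replicate 1 and below it in the others.

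Of 19 tested genes of a wound-type or fetal-like epithelium 3 rose and none fell, with a median of 0.71, where 0.488% of all genes rose. The 3 that rose, Hbegf, Areg and Ereg, encode ligands of the EGF receptor, and the other 16 did not pass the test. Hbegf, heparin-binding EGF, stood at 245, 347, 421 and 397 CPM with tCDCA and 186, 204 and 203 CPM with WT CME(+). Every tCDCA library was above every extract library (0.79 ± 0.16, edgeR adjusted p = 0.00457). Areg, amphiregulin, was at 149.5, 249.8, 278 and 264 CPM against 119.6, 144 and 135 CPM (0.77 ± 0.18, edgeR adjusted p = 0.0118). Ereg, epiregulin, was at 139, 232, 183 and 202 CPM against 135, 102 and 100.2 CPM (0.79 ± 0.19, edgeR adjusted p = 0.0203). Neither overlapped, although Ereg in tCDCA replicate 1 was almost level with the extract library of the same run (log2 difference 0.05). All 3 calls were lost without WT CME(+) replicate 3, without WT CME(+) replicate 4, without scaling factors and with the 7 libraries alone.

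Immediate early genes, which answer growth factor and stress signals within minutes to hours, had 3 of 20 tested members higher and 0 lower (median 0.35). Fosl1, a partner of Jun in AP-1, stood at 38.4, 43.8, 47.5 and 51.5 CPM with tCDCA and 19.3, 16.0 and 16.6 CPM with the extract, without overlap (1.36 ± 0.26, edgeR adjusted p = 0.00218). Ier3 changed by 0.89 ± 0.18 and Dusp1, a phosphatase of MAP kinases, by 0.63 ± 0.16. The count was 1 without scaling factors and 1 with the 7 libraries alone. Tnfrsf12a, the receptor of the cytokine TWEAK, had the smallest p of the 12 well-expressed genes with the largest increases. It was at 17.8, 138, 189 and 133 CPM against 9.75, 64.0 and 53.2 CPM (1.29 ± 0.20, edgeR adjusted p = 0.000245). The first run lay lower in both groups, and within each run every tCDCA library was above every extract library. In the plasminogen system 2 of 16 tested members rose, the urokinase receptor Plaur (1.14 ± 0.24) and the activator Plat (0.95 ± 0.17), both named after their values were seen. Plat measured 203, 174, 228 and 191 CPM against 149, 90.9 and 91.7 CPM, and Plaur 96.3, 38.7, 62.9 and 48.4 CPM against 59.2, 17.4 and 22.2 CPM. Plat was separate between the groups, and Plaur overlapped through the first run. Only 1 of these 2 was called without WT CME(+) replicate 3, without scaling factors and with the 7 libraries alone.

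The AP-1 letters TGANTCA were found in 6 of 41 promoters of higher genes (14.6%), in 13 of 109 of lower genes (11.9%) and in 6.65% of all tested genes with a promoter. The CRE letters TGACGTCA were found in 3 of the 41 (7.32%), in 2 of the 109 (1.83%) and in 3.65% of all tested genes with a promoter. The 150 bases before the start site are shown for a ligand, an immediate early gene and the urokinase receptor described above, with the match in capitals (chr5:91139449-91139598, plus strand for Areg; chr17:26508473-26508622, minus strand for Dusp1; chr7:24462333-24462482, plus strand for Plaur).
Areg: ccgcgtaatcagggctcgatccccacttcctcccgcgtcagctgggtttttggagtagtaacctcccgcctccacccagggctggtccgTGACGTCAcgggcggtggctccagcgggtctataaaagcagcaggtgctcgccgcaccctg
Dusp1: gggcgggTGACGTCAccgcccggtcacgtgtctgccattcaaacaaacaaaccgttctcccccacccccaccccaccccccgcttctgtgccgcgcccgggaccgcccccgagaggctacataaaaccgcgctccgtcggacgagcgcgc
Plaur: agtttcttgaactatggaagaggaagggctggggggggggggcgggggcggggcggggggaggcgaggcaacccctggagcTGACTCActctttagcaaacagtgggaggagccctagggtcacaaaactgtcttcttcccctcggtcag
Areg and Dusp1 hold the CRE letters and Plaur the AP-1 letters. The window of Slc3a1, a lower gene shown further above, also holds the AP-1 letters (TGAGTCA), left there in lower case. They begin 140 bases before its start site.

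Inflammatory and stress genes showed few calls, though a larger share than the 0.488% of all genes that rose. Of 29 tested NF-kB targets and inflammatory genes 2 rose (6.90%) and none fell, with a median of 0.71. Lif, a cytokine of the interleukin-6 family, stood at 24.2, 46.2, 59.5 and 27.0 CPM with tCDCA and 14.4, 12.4 and 18.9 CPM with WT CME(+) (1.33 ± 0.31, edgeR adjusted p = 0.0141). Il1b, named after its values were seen, was at 112, 23.4, 28.7 and 27.3 CPM against 77.4, 10.5 and 12.1 CPM (0.98 ± 0.23). Lif was separate between the groups, while Il1b was several times higher in the first run than in the second in both groups. The list's count varied from 0 without WT CME(+) replicate 3 or 4 to 9 without tCDCA replicate 1 and 10 by DESeq2. Of 24 genes of the ATF4 stress response, which restores amino acid supply, 2 rose (8.33%) and none fell, with a median of 0.49. They were Slc7a11 (1.09 ± 0.24) and the pseudokinase Trib3 (1.12 ± 0.29), both named after their values were seen. Slc7a11 measured 47.7, 38.7, 37.6 and 35.8 CPM against 30.7, 14.9 and 15.4 CPM, with no overlap. Both calls were lost without WT CME(+) replicate 3 or replicate 4.
The promoter of Slc7a11 holds the C/EBP-ATF letters TGATGCAA once on each strand, shown in capitals in the 150 bases before its start (chr3:50443614-50443763, minus strand). These letters were found in 0.839% of all tested genes with a promoter and in 2 of 109 lower genes (1.83%). Among the higher genes they were found in 1 of 41 (2.44%), which is Slc7a11 itself.
Slc7a11: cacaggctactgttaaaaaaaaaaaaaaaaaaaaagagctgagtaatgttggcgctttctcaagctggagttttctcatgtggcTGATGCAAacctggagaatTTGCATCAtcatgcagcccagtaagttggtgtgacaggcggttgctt
No member was called among genes of endoplasmic reticulum folding, prostaglandin synthesis, interferon response, inducible defence, cell cycle, ribosome biogenesis or p53. Their medians lay between -0.10 and 0.22. None was called either among 15 genes of MHC class II (median -0.57), 7 of zinc handling (-0.17), 11 mitochondrially encoded mRNAs (0.43) and 23 nuclear genes of oxidative phosphorylation (-0.04). Single members were called in 5 further lists, each named after its values were seen: the chaperone Cryab of 17 heat shock genes (0.92 ± 0.23), Slc7a11 again of 19 NRF2 targets, the tight junction protein Cldn15 of 14 (-0.69 ± 0.19), Mxi1 of 22 hypoxia and glycolysis genes (-0.79 ± 0.21) and the clock output Dbp of 18 clock genes (-1.12 ± 0.29). The calls of Cryab, Mxi1 and Dbp were each lost on leaving out any of 5 libraries in turn, and that of Cldn15 on leaving out any of 4.

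Other large increases over WT CME(+) were found at lower levels. Acot5, a peroxisomal acyl-CoA thioesterase, stood at 5.95, 18.3, 36.6 and 43.0 CPM with tCDCA and 0.212, 3.63 and 3.55 CPM with WT CME(+), beside 1.22, 0 and 0.554 CPM with DMSO. All tCDCA libraries were above all extract libraries, and WT CME(+) replicate 1 rests on 1 count. The log2 fold change was 3.33 ± 0.70 (edgeR adjusted p = 0.0155), and as Acot5 has near copies among the Acot genes its reads may be shared with them. Tead3, a partner of the YAP coactivator, changed by 1.53 ± 0.38, Baiap2, an adaptor of actin assembly, by 1.51 ± 0.35, the hyaluronan synthase Has1 by 1.39 ± 0.38 and Sh3bgr by 1.29 ± 0.31. Tnip3, a binding partner of the NF-kB inhibitor A20, changed by 1.44 ± 0.38. The call of Tnip3 was kept under 5 of the 18 alternatives and that of Has1 under 9, while Baiap2, Rnu11, Sh3bgr, Tead3, Acot5 and Hist1h2bk kept theirs under 11 to 14. Hist1h2bk gave 1.97 ± 0.42 and Rnu11, the U11 small nuclear RNA, 1.77 ± 0.41. Histone mRNAs and small nuclear RNAs are mostly not polyadenylated, and histone genes have near-identical copies, so both values are uncertain. Rnu11 was also the 1 named gene among these that differed in the other direction in the first run (-0.39). Against DMSO, tCDCA passed the test for Acot5 (5.48 ± 0.85) and Has1 (2.04 ± 0.43). It did not for Tnip3 (1.02 ± 0.40), Tead3 (0.83 ± 0.36) or Hist1h2bk (0.70 ± 0.38). Nor did it for Sh3bgr (0.66 ± 0.30), Rnu11 (0.58 ± 0.35) or Baiap2 (0.52 ± 0.33). For the genes that did not pass, in the same order, WT CME(+) minus DMSO was -0.42, -0.70, -1.27, -0.63, -1.19 and -0.99. None of these passed either.

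Enterocyte markers moved with the lower groups described above. Of 20 tested markers 11 fell and none rose (median -1.04), and these 11 all belong to the enzyme, sugar or peptide carrier lists as well. All 20 markers together summed to 2538 to 4678 CPM with tCDCA, 4345 to 9061 CPM with WT CME(+) and 8386 to 13506 CPM with DMSO. The tCDCA and WT CME(+) sums overlapped through WT CME(+) replicate 1 of the first run. In bulk tissue fewer enterocytes and less RNA per enterocyte cannot be told apart. The count was 5 without WT CME(+) replicate 4 and 3 with the 7 libraries alone. Markers of goblet cells (12 tested, median -0.05), Paneth cells (13, median 0.38) and stem cells (11, median 0.10) had no called member. Paneth markers summed to 40051 to 63036 CPM with tCDCA and 36178 to 40304 CPM with the extract, and goblet markers to 5368 to 8220 and 4960 to 7457 CPM. No marker was called for tuft cells, B and plasma cells, myeloid cells, fibroblasts, endothelium, enteric neurons and glia, adipocytes and mesothelium, erythrocytes or pancreatic acinar cells. T and NK cell markers had none called of 9 tested (median -0.91), at 7.47 to 66.4 CPM in sum with tCDCA and 13.8 to 82.9 CPM with the extract. The top of both ranges was replicate 1, of the first run, and the other replicates reached at most 11.8 and 31.9 CPM. Markers of B and plasma cells, myeloid cells, fibroblasts, erythrocytes, and adipocytes and mesothelium also summed highest in replicate 1 of both groups. Tac1 was the 1 called of 16 enteroendocrine markers (log2 fold change 0.90, edgeR adjusted p = 0.0474), named after its values were seen, and its call was lost on leaving out any of 5 libraries in turn. The part of these cell markers in the results was not tested.

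Against DMSO, tCDCA changed 746 genes (5.68%; 2.52% higher and 3.16% lower). WT CME(+) changed 23 (0.175%; 0.145% higher and 0.0305% lower), and 95 by DESeq2. These contrasts share the DMSO libraries and each is given for itself. With tCDCA 17 of 19 brush border members were lower than with DMSO (median -1.43), and with WT CME(+) 0 of 19 (median -0.42). The sugar list had 8 of 12 lower with tCDCA (median -1.35) and 0 with the extract (median -0.19). Of 29 NF-kB and inflammatory genes tCDCA raised 10 and lowered 1 (median 1.07), and WT CME(+) changed 0 (median 0.23). Of 24 ATF4 genes they raised 14 and 2 (medians 0.94 and 0.31), and of 19 wound-type genes 12 and 0 (0.85 and 0.30). Anpep differed from DMSO by -1.55 ± 0.22 with tCDCA and by -0.22 ± 0.23 with WT CME(+). For Acta1 the values were -2.39 ± 0.31 and 0.15 ± 0.30, and for Fosl1 1.27 ± 0.26 and -0.09 ± 0.29. Dusp1 gave 0.25 ± 0.16 and -0.38 ± 0.17, neither of which passed the test, and Hnf4a -0.24 ± 0.16 and 0.40 ± 0.18, likewise.

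**Figure D5:**
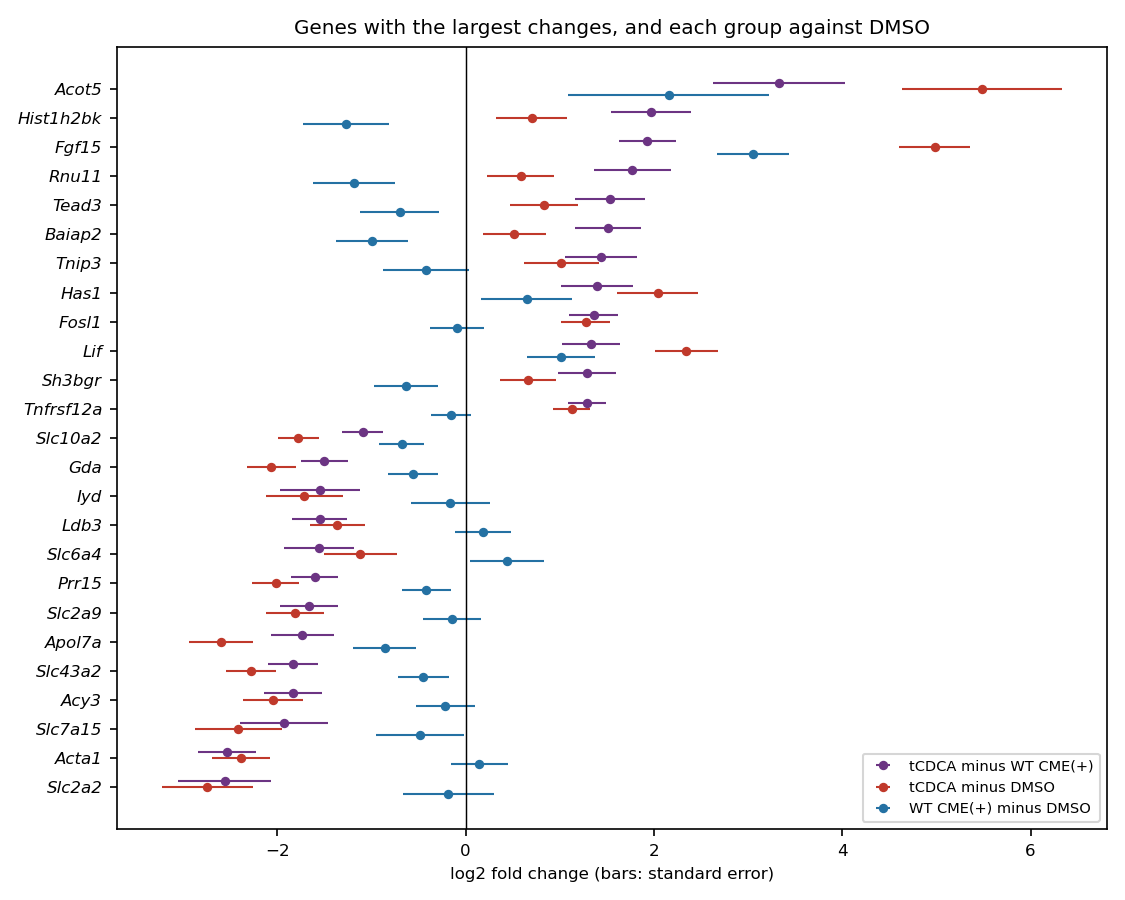
Log2 fold changes with their standard errors for the named genes with the largest changes and Slc10a2. Purple is tCDCA minus WT CME(+), red is tCDCA minus DMSO and blue is WT CME(+) minus DMSO. Blue points are highest for Fgf15 (3.05), Acot5 (2.16) and Lif (1.01) and lowest for Hist1h2bk (-1.27), Rnu11 (-1.19) and Baiap2 (-0.99).

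Whether another extract would give the same difference was tested by the difference between extracts, from which tCDCA cancels out. KO CME(+), from donors lacking the carrier gene Asbt, and WT CME(+) differed at 0 genes by edgeR and 0 by DESeq2, with 556 at an unadjusted p under 0.05 (smallest adjusted p = 0.9995). WT CME(-) and WT CME(+) differed at 0 genes by edgeR and 12 by DESeq2, with 831 at an unadjusted p under 0.05 (smallest adjusted p = 0.255). Fgf15 differed by 0.09 ± 0.29 in the former contrast and by 1.46 ± 0.30 in the latter. Anpep differed by 0.05 ± 0.22 and -0.09 ± 0.22. Other lower genes had larger values in the latter contrast, among them Cdx2 at -1.26 ± 0.27, Acy3 at -1.04 ± 0.30, Slc43a2 at -0.76 ± 0.26 and Slc10a2 at -0.64 ± 0.22. The median was -0.14 for the brush border list, -0.49 for the sugar list and -0.31 for the carriers of amino acids and peptides. These contrasts share the WT CME(+) libraries with tCDCA minus WT CME(+), and a p that misses the threshold does not show that the extracts act alike.

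The direction of the calls was then read in the run that had not made them. A fit on the second run alone called 230 genes, 77 higher and 153 lower. In the first run, which has 1 library per group and so no test, 185 of the 230 differed in the same direction (80.4%), against 54.3% of all genes tested in both. The median log2 fold change of the higher genes was 1.29 in the second run and 0.31 between the libraries of the first. For the lower genes it was -1.14 and -0.33. These genes were chosen by their values in the second run, which raises their medians there, so the sizes of the 2 runs cannot be compared from them. Replicate 1 is also the tCDCA library without a stated concentration. Of the 60 named genes that passed the test, 16 kept their call under every alternative other than the fit without the run term: Fgf15, Fosl1 and Tnfrsf12a among the higher ones, and Acta1, Acy3, Slc43a2, Prr15, Gda, Slc6a19, Slc3a1, Slc15a1, Mgam, Anpep, Cdx2, G6pc and Tkfc among the lower ones. No named gene that passed the test changed its direction under any of the 18 alternatives.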

How the data were processed

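Ileal tissue of 7 libraries (4 tCDCA, 3 WT CME(+)) was compared within a fit of 21 libraries, which also held DMSO and the other extracts. The 3 libraries labelled as removed were left out. The deposited values are raw counts per Ensembl gene in 1 table, and the lowest total among the 7 was 2936750. The build was GRCm39, and cutadapt, HISAT2, Picard and FastQC are named, per the submitters' processing notes. How reads were assigned to genes (tool, strand, annotation release) is not given in the sources used here, so genes overlapping another on the opposite strand are uncertain. Symbols came from a GENCODE M21 table and matched 51884 of 57126 identifiers, which held 88.4% of the counts.

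Genes were filtered by filterByExpr and scaled by TMM in edgeR 4.0.16 (R 4.3.3, limma 3.58.1). A robust quasi-likelihood test with group and run as terms was adjusted by Benjamini-Hochberg over 13125 genes and called at 0.05. SE was the log2 fold change divided by the square root of F. CPM are after TMM scaling. The code was checked on simulated counts that held no run difference, so the run term was not tried there. Of 100 genes changed by 1 on the log2 scale 53% were called, and of 100 changed by 2 it was 93%, with 6 false calls. The changed genes were drawn only from those above a minimum mean CPM, so these percentages do not cover genes of lower level.

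The members and gene lists were chosen with earlier results of these data known. Named were 6 bile acid genes (one too low to test), for each direction the 12 called genes of largest absolute log2 fold change that had a proper symbol and averaged 3 or more in log2 CPM, and from each list with 3 or more called members the 4 with the smallest p. Other named genes are marked in the text as chosen after their values were seen. A few genes are not reported here. The 49 lists held 759 genes, of which 699 were tested. Replicate numbers mark no shared animal in the labels and were not used as a block. Alternatives were other scaling, no filter, DESeq2 1.42.0, other sets of libraries, no run term, a replicate block and leaving out each library. Promoters were taken from RefSeq (GRCm38.p6) for 9538 of the 13125 genes.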

Additional observations from a re-analysis of the deposited data

Results flagged for a closer look

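In 63 sets of 4 tCDCA values (reported genes, total counts and the mitochondrial rRNA share), 3 held a library far from the other 3, where chance gives about 1 in 20. Rnu11 was at 3.27 CPM in tCDCA replicate 1 and between 42.4 and 50.1 CPM in the others. Tnip3 was at 50.5 CPM in tCDCA replicate 1 and between 7.81 and 9.66 CPM in the others. Khk was at 23.8 CPM in tCDCA replicate 3 and between 12.9 and 14.5 CPM in the others. For Tnip3 the WT CME(+) library of the first run was at 23.3 CPM, and run is a term of the fit.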

How the results depend on the processing

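Of 203 genes called (64 higher, 139 lower), 94 (18 and 76) were called without scaling factors, 363 (144 and 219) by DESeq2, 29 (6 and 23) with the 7 libraries fitted alone, 402 (144 and 258) with all 24 libraries, 426 (147 and 279) with WT CME(+) replicate 2 added and 0 (0 and 0) without the run term, which left 857 genes at an unadjusted p under 0.05. Without the filter on low counts 103 were higher (284 in all). Leaving out 1 library gave 54 to 295 genes, 10 to 114 higher and 44 to 181 lower: 54 without WT CME(+) replicate 4, 80 without replicate 3, 112 without tCDCA replicate 4, and 295 without tCDCA replicate 1. Relative log expression factors gave 201, of which 200 were shared, the second run alone 230 (154 shared) and leaving out mitochondrial rRNA 195 (191 shared). Fewer samples enter the fits with the 7 libraries alone or 1 library less; otherwise the cause was not tested. The replicate numbers share no stated animal; deviations of same-numbered libraries correlated at 0.539, 0.0808 and 0.184, and at -0.256, -0.0691 and -0.0503 after the run term. A replicate block in place of run gave 155 genes, 39 higher and 116 lower. Depth limits the rare genes: G6pc rests on 5 counts in the 4 tCDCA libraries.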

Other observations

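A few genes outside the lists were picked from those that fell because they encode proteins of the microvillus, so they have no count of members that did not pass. They were Myo1a (-1.22 ± 0.19), the motor that ties the actin core to the membrane, the actin bundlers Espn (-0.87 ± 0.19) and Pls1 (-0.87 ± 0.17), Myo7b (-0.74 ± 0.15) of the tip links, and the scaffold Slc9a3r1 (-0.86 ± 0.19) (log2 fold changes ± SE, edgeR adjusted p = 0.000193, 0.0078, 0.00308, 0.00286 and 0.0105). Myo1a stood at 332, 216, 152 and 254 CPM with tCDCA and 451, 607 and 589 CPM with WT CME(+), without overlap.

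Gna11, Rps14, Pf4 and Defa-ps16 were also chosen after their values were seen. Gna11, a G protein alpha subunit, had the smallest adjusted p of all genes by edgeR (1.44e-06), with 113, 222, 235 and 202 CPM against 187, 695 and 737 CPM. The ribosomal protein gene Rps14 was higher, at 2049, 2818, 2933 and 2891 CPM against 1670.5, 1386 and 1087 CPM (0.96 ± 0.19), and has processed copies with which reads may be shared. Pf4 was at 144, 94.3, 112 and 78.2 CPM against 84.6, 37.8 and 33.7 CPM (1.25 ± 0.21). Defa-ps16, farthest left in the plot of all genes, was at 0 in all 4 tCDCA libraries and at 0.212, 1.45 and 27.2 CPM with WT CME(+), so it rests on replicate 4, its fitted fold change is no bound, and near-identical defensin genes may share its reads. In the removed WT CME(+) replicate 2, Fgf15 was at 18.3 CPM, Slc10a2 at 486, Anpep at 1063 and Acta1 at 29.9 CPM.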
